A study of Mus musculus with 62 samples.

Results

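Of 41 genes that fold, sort, export or degrade proteins in the endoplasmic reticulum (ER), or that sense stress there, 36 were measured in lungs of mice challenged with a mite allergen. The set was put together by function: ER lumen chaperones (9 genes), lectin chaperones and disulphide isomerases (6), stress sensors and transcription factors (8), translocation and signal peptide processing (8), ER-associated degradation (8) and retrieval receptors (2). It was chosen with earlier results of these data known. Each of the 36 had a transcript cluster of its own among 16715 on the array, which cover 14824 named genes. Atf6, Canx, Sec61g and Ssr3 were not analysed here, and neither was Dnajc3, whose only cluster carries several gene symbols. Mean levels of the members ran from 4.68 for Sec61b to 10.97 for Pdia3 on the log2 scale, the 20.4th to the 99.5th percentile of all clusters.

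The right lower lung lobe of 48 male mice gave whole lung RNA depleted of ribosomal RNA, which was hybridised to 62 exon arrays, and 7 mice had 3 arrays that were averaged. All mice had been sensitised by intraperitoneal injection of 10 µg of Der p 1, a cysteine protease of house dust mites, on days 1 and 8. On day 15 they were challenged with 50 µg of Der p 1 (Treated) or with PBS alone (Control), and lungs were taken on day 18, 72 h later. The 4 groups held 14 BALB/cJ Treated, 11 BALB/cJ Control, 12 C57BL/6J Treated and 11 C57BL/6J Control mice, so the Control mice were sensitised too. Values are the deposited log2 RMA values per mouse. Differences are log2 ± standard error from limma, and p-values are adjusted by Benjamini and Hochberg over all 16715 clusters, with calls at an adjusted p under 0.05. Mice were fitted with equal weight, with 1 array or 3, so precision rests on the number of mice and on the spread of arrays. Those with 3 arrays were 3 BALB/cJ Treated, 2 BALB/cJ Control, 2 C57BL/6J Treated and 0 C57BL/6J Control mice. Repeat arrays of a mouse had an SD of 0.0957 to 0.427 for the members (median 0.194), against 0.148 to 0.679 (median 0.287) between mice within groups. The SDs were close for Manf (0.274 against 0.288) and Sdf2l1 (0.331 against 0.347) and far apart for Creb3l1 (0.137 against 0.449).

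Proteins destined for secretion enter the ER through the Sec61 channel, lose their signal peptide, are folded by chaperones such as Hspa5 (BiP) and by disulphide isomerases, and are returned to the cytosol for degradation if they fail to fold. When unfolded protein builds up, the sensors Ern1 (IRE1α), Eif2ak3 (PERK) and Atf6 start the unfolded protein response: Ern1 splices the mRNA of Xbp1, Eif2ak3 slows translation and favours Atf4 and Ddit3 (CHOP), and cleaved Atf6 enters the nucleus. Spliced Xbp1 and Atf6 switch on chaperone genes, in part through the ER stress response element (ERSE). In airways the pathway is known from goblet cells, which make large amounts of mucin and carry Ern2 (IRE1β), and from plasma cells, which need Xbp1. The values used here are for whole transcript clusters, so they show neither the splicing of Xbp1 nor the phosphorylation or cleavage of a sensor.

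Promoter windows of RefSeq (build GRCm38.p6), 250 bases before to 50 after a start site, were found for 31 of the 41 genes, in 32 windows, and none were used for Hyou1, Manf, Ern2, Atf6, Creb3l1, Sec61a1, Spcs3, Sec11c, Derl1 and Kdelr2. They were searched on both strands for ERSE (CCAAT, 9 bases of any kind, then CCACG), ERSE-II (ATTGG, 1 base of any kind, then CCACG) and the unfolded protein response element UPRE (TGACGTGG). The CCACG end is common to ERSE and ERSE-II, and read on the other strand it also lies within UPRE. ERSE was present in 9 of the 32 windows (28.1%), against 0.119% of all 32851 windows. ERSE-II was present in 2 (6.25%, against 0.0365%) and UPRE in 1 (3.12%, against 0.676%). At least 1 of the 3 was found in 12 members, 37.5% of their windows against 0.822% of all. Some of these genes are textbook targets of the response, and a match is a run of letters, not a proven site. The 4 windows below belong to the members with a match that had the smallest adjusted p after challenge, with the matches in capitals. They are chr15:88819396-88819695 (plus strand) for Creld2, chr10:75893148-75893447 (plus) for Derl3, chr8:94386179-94386478 (plus) for Herpud1 and chr10:86705395-86705694 (minus) for Hsp90b1, the last with 2 matches to ERSE.
Creld2: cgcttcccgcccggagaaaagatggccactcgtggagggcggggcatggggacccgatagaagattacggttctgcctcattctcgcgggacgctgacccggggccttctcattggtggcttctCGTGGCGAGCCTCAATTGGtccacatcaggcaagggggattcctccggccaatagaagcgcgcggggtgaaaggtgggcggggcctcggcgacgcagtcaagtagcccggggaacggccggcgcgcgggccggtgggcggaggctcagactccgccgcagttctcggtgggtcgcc
Derl3: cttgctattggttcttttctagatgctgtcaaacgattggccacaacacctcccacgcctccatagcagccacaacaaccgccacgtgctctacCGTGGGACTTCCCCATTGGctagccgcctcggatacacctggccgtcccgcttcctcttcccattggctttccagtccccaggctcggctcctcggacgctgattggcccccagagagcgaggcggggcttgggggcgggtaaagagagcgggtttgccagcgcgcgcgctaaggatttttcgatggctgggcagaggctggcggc
Herpud1: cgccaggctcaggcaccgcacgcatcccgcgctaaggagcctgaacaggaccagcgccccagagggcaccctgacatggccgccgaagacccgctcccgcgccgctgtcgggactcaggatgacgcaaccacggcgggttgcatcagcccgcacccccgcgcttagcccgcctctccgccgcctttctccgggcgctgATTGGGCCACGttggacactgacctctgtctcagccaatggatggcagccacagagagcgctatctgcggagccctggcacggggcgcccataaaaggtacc
Hsp90b1: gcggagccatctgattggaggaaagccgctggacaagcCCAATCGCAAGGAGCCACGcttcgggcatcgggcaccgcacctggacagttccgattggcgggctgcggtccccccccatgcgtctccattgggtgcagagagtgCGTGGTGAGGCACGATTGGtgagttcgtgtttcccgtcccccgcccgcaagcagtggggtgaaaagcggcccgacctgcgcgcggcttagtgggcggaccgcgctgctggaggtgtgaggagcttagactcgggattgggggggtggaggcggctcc
Creld2 and Derl3 hold ERSE on the strand opposite to the gene, and Herpud1 holds ERSE-II. In the other 8 members with a match, only the matched letters are shown to allow the comparison, read 5′ to 3′ on the strand of the motif, with its fixed letters in capitals. The first 6 are ERSE, then come ERSE-II in Dnajb11 and UPRE in Kdelr3.
Hspa5: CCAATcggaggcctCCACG
Calr: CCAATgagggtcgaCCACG
Pdia6: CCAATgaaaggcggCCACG
Syvn1: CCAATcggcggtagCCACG
Canx: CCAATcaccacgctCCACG
Dnajc3: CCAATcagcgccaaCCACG
Dnajb11: ATTGGcCCACG
Kdelr3: TGACGTGG
The 9 spacer bases of ERSE differ between genes while the ends are alike by construction of the search. Of 8 windows of members higher in challenged C57BL/6J mice, 4 held a match, against 5 of 19 windows (18 genes) of members that did not pass there. Herpud1, called lower there, holds a match too and is in neither count.

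Some mice stood apart before any member was compared. Clca1, a goblet cell product, rose by 4.76 ± 0.67 in BALB/cJ (adjusted p = 3.49e-05) and by 2.74 ± 0.69 in C57BL/6J (adjusted p = 0.00461) after challenge, and Chil4 is a chitinase-like protein known from allergic lungs. Mouse634, a BALB/cJ Treated mouse, had 6.43 and 3.63 for them, below the levels of all other BALB/cJ Treated mice. Mouse633, a BALB/cJ Control mouse, had 12.6 for Clca1 and 10.6 for Chil4, and mouse644, a C57BL/6J Control mouse, had 12.7 and 10.4. Mouse633 also had the highest value among 11 BALB/cJ Control mice for 24 of the 36 members (66.7%, against 9.51% of all clusters), and mouse644 among 11 C57BL/6J Control mice for 8 (22.2%, against 4.05%). Of the other C57BL/6J Control mice, 3 had 10.6, 10.9 and 10.9 for Clca1, within the range of C57BL/6J Treated mice (10.1 to 12.7). Whether samples were exchanged was not tested. Labels were kept, and results without these mice are given beside. These mice were set apart by their levels of challenge markers, so leaving them out can widen differences between Treated and Control mice by selection. Mouse numbers start with 5 or with 6 (series 5 with 20 mice, series 6 with 28), a mark whose meaning the labels do not give. All 4 groups lie in both series, in unequal shares. Series 5 and series 6 held 6 and 8 BALB/cJ Treated and 5 and 6 BALB/cJ Control mice. They held 4 and 8 C57BL/6J Treated and 5 and 6 C57BL/6J Control mice. The SD over clusters of an array averaged 1.86 ± 0.15 in C57BL/6J Treated mice (n = 12) and 1.96 ± 0.11 in C57BL/6J Control mice (n = 11), and 27 of the 36 members correlated positively with it within groups (median r = 0.37, against -0.17 for all clusters, over 48 mice that share 1 platform). Mouse532, a C57BL/6J Treated mouse with 1 array, had the lowest SD, 1.44, and the next lowest was 1.70 in mouse531. Among C57BL/6J Treated mice, mouse532 was lowest for Calr, Pdia3, Pdia4 and Pdia6 and highest for Manf and Ern2. Mouse532 was kept in the main fit and left out when each mouse was dropped in turn.

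In C57BL/6J mice, where the question was how challenge changed these genes, 10 of 36 members were higher and 1, Herpud1, was lower in Treated than in Control mice. These are 27.8% and 2.78% of the members, while 9.85% of all clusters were called higher and 8.97% lower (18.8% in all). Of all calls 47.7% were lower, and 66.8% with each array centred on its median, when 8 members were called higher and 1 lower. The median difference of the members was 0.16, against 0.07 over all clusters. Increases were modest, from 1.25-fold for Ssr1 and Hsp90b1 to 1.68-fold for Sdf2l1. In BALB/cJ mice 0 of 36 members passed by limma, against 1.93% of all clusters (1.70% higher and 0.233% lower). Yet 13 of the 36 (36.1%) had an unadjusted p under 0.05 there, against 12.4% of all genes, 27 of the 36 differences were above 0 (75.0%, against 41.5% of all genes), and their median was 0.15, against -0.03 over all clusters. Since members were chosen with earlier results of these data known, the shares in both strains describe this set and do not test it.
Without mouse633 and mouse634, 8 members were called higher in BALB/cJ Treated mice (P4hb, Creb3l1, Dnajb11, Sdf2l1, Ern2, Hsp90b1, Creld2 and Kdelr3), and 7 with mouse644 left out as well, when Kdelr3 had an adjusted p of 0.0512. Over all 16715 clusters the calls there were 809 and 790, against 323 with all mice. Because the mice left out were picked by challenge markers, these calls are no independent support for a change. In C57BL/6J mice 12 and 11 members were then called, of 3163 and 2815 clusters, against 3146 clusters with all mice.
The 10 members higher in C57BL/6J all had differences above 0 in BALB/cJ too, as did 82.4% of all clusters higher in C57BL/6J. The 2 comparisons share no mouse.

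**Figure D1:**
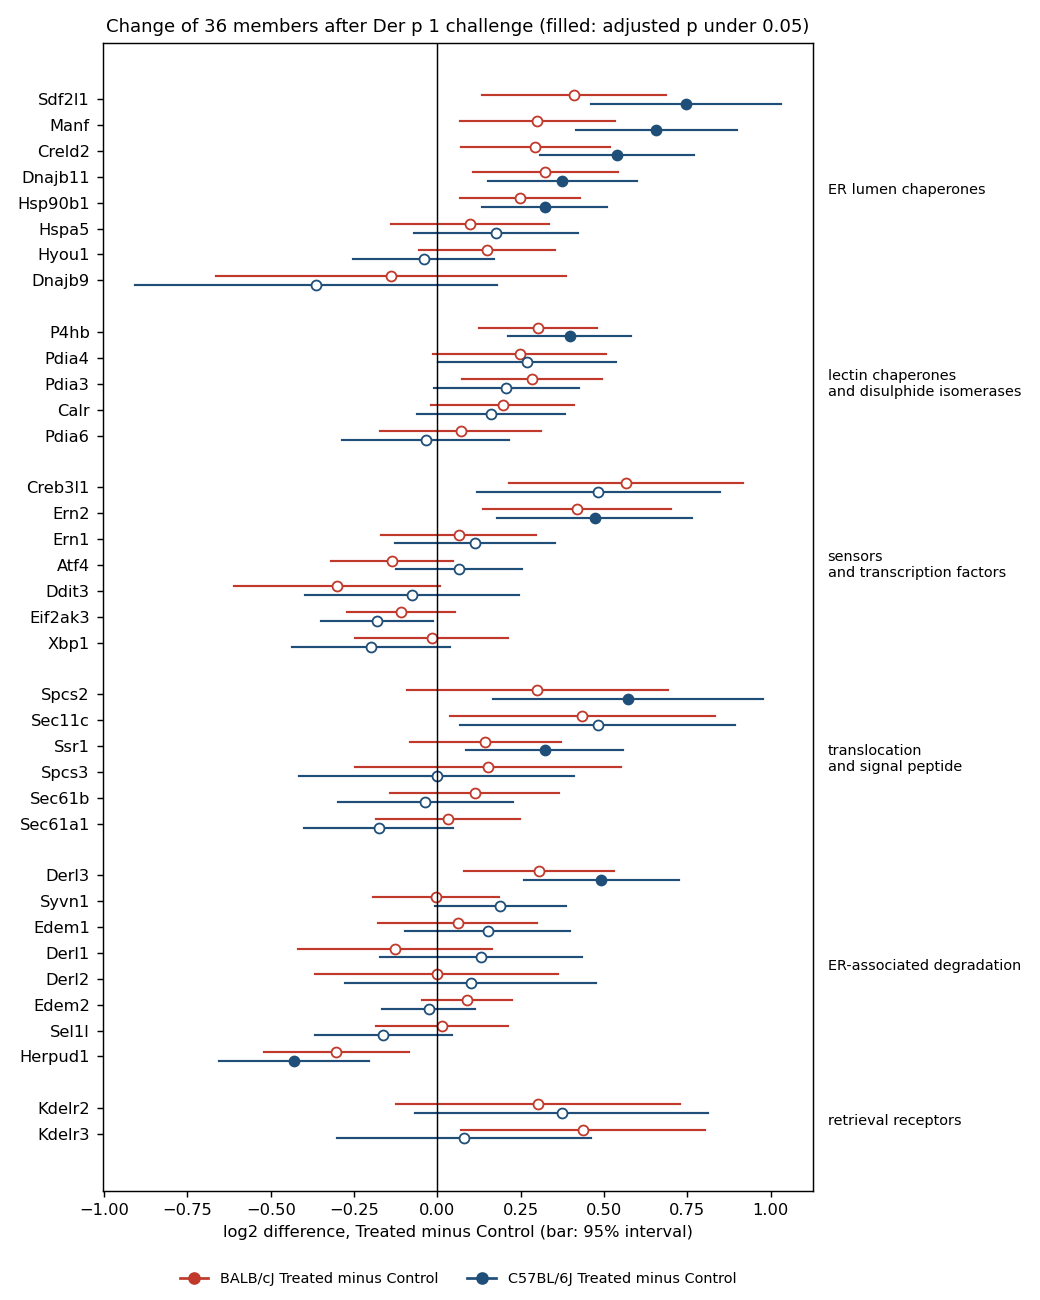
Log2 difference between Treated and Control mice (x axis) for each of 36 members (y axis, by role), in BALB/cJ (red, above) and C57BL/6J (blue, below). Bars are 95% intervals and filled points passed an adjusted p under 0.05: 11 in C57BL/6J, 0 in BALB/cJ.

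Among the ER lumen chaperones, 5 of 8 measured members rose in C57BL/6J mice, with a median difference of 0.35 over the 8, and their median in BALB/cJ was 0.27. Over all clusters 9.85% were called higher in C57BL/6J. Manf, a small ER protein that binds Hspa5 and can be secreted, ranged from 7.25 to 8.37 (median 7.86) in C57BL/6J Treated mice and from 6.82 to 7.51 (median 7.14) in C57BL/6J Control mice. All 12 Treated mice lay above the Control mean and 9 above every Control mouse, a difference of 0.66 ± 0.12 (1.58-fold, adjusted p = 0.000240, 0.79 in series 5 and 0.56 in series 6). In BALB/cJ mice Manf ranged from 7.06 to 8.01 (median 7.57) in Treated and from 7.01 to 7.80 (median 7.22) in Control mice, where the highest was mouse633. The groups overlapped and the difference of 0.30 ± 0.12 did not pass (adjusted p = 0.211, and 0.36 with adjusted p = 0.0650 without mouse633 and mouse634).
Sdf2l1, which works in a complex with Dnajb11 and Hspa5, had the largest change of all members. It ranged from 7.34 to 8.43 (median 7.89) in C57BL/6J Treated and from 6.57 to 7.51 (median 7.20) in C57BL/6J Control mice, with 10 of 12 Treated mice above every Control mouse. The difference was 0.75 ± 0.14 (1.68-fold, adjusted p = 0.000334, 0.62 in series 5 and 0.85 in series 6). In BALB/cJ mice Sdf2l1 ranged from 7.11 to 8.22 (median 7.69) in Treated, where mouse634 was lowest, and from 6.72 to 8.06 (median 7.27) in Control mice. That difference was 0.41 ± 0.14 (adjusted p = 0.118) and 0.51 without mouse633 and mouse634 (adjusted p = 0.0155).

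Creld2, an ER stress-induced folding factor whose promoter is printed above, ranged from 7.40 to 8.55 (median 8.16) in C57BL/6J Treated and from 7.23 to 7.82 (median 7.57) in C57BL/6J Control mice. The 9 highest Treated mice exceeded all Control mice, and the groups differed by 0.54 ± 0.12 (1.45-fold, adjusted p = 0.00105). Within series 5 alone the difference was 0.46 (adjusted p = 0.112) and within series 6 alone 0.61 (adjusted p = 0.0153). BALB/cJ mice had 7.57 to 8.35 (median 7.90) when Treated and 7.31 to 8.33 (median 7.58) as Control, with mouse634 the lowest Treated and mouse633 the highest Control mouse. The BALB/cJ difference was 0.29 ± 0.11 (adjusted p = 0.198) and 0.39 without mouse633 and mouse634 (adjusted p = 0.0197).
Dnajb11 (ERdj3), a co-chaperone of Hspa5, ranged from 8.60 to 9.52 (median 9.15) in C57BL/6J Treated and from 8.37 to 9.07 (median 8.69) in C57BL/6J Control mice, a rise of 0.38 ± 0.11 (adjusted p = 0.0155) with 7 of 12 Treated mice above every Control mouse. In BALB/cJ mice it ranged from 8.75 to 9.56 (median 9.08) in Treated and from 8.47 to 9.44 (median 8.79) in Control mice, and 0.32 ± 0.11 did not pass (adjusted p = 0.117), but 0.39 without mouse633 and mouse634 did (adjusted p = 0.0209). Hsp90b1 (GRP94), the ER member of the Hsp90 family, rose by 0.32 ± 0.09 in C57BL/6J (adjusted p = 0.0125), with 11 of 12 Treated mice above the Control mean. In BALB/cJ Hsp90b1 was at 0.25 ± 0.09 (adjusted p = 0.169), and at 0.32 without mouse633 and mouse634 (adjusted p = 0.0209). In C57BL/6J with each array centred on its median its difference was 0.27 (adjusted p = 0.0508), and neither series alone gave a call (adjusted p = 0.164 in series 5 and 0.106 in series 6). Dnajb11 likewise did not pass within series 5 (0.45, adjusted p = 0.0606) or series 6 (0.28, adjusted p = 0.131).
The best known member did not pass: Hspa5 differed by 0.18 in C57BL/6J (adjusted p = 0.292) and by 0.10 in BALB/cJ (adjusted p = 0.846). With array SD, described above, as a covariate, Hspa5 was at 0.32 in C57BL/6J (adjusted p = 0.0465). Hyou1, a nucleotide exchange factor for Hspa5, was at -0.04 and Dnajb9 (ERdj4) at -0.36 in C57BL/6J, and neither passed.

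**Figure D2:**
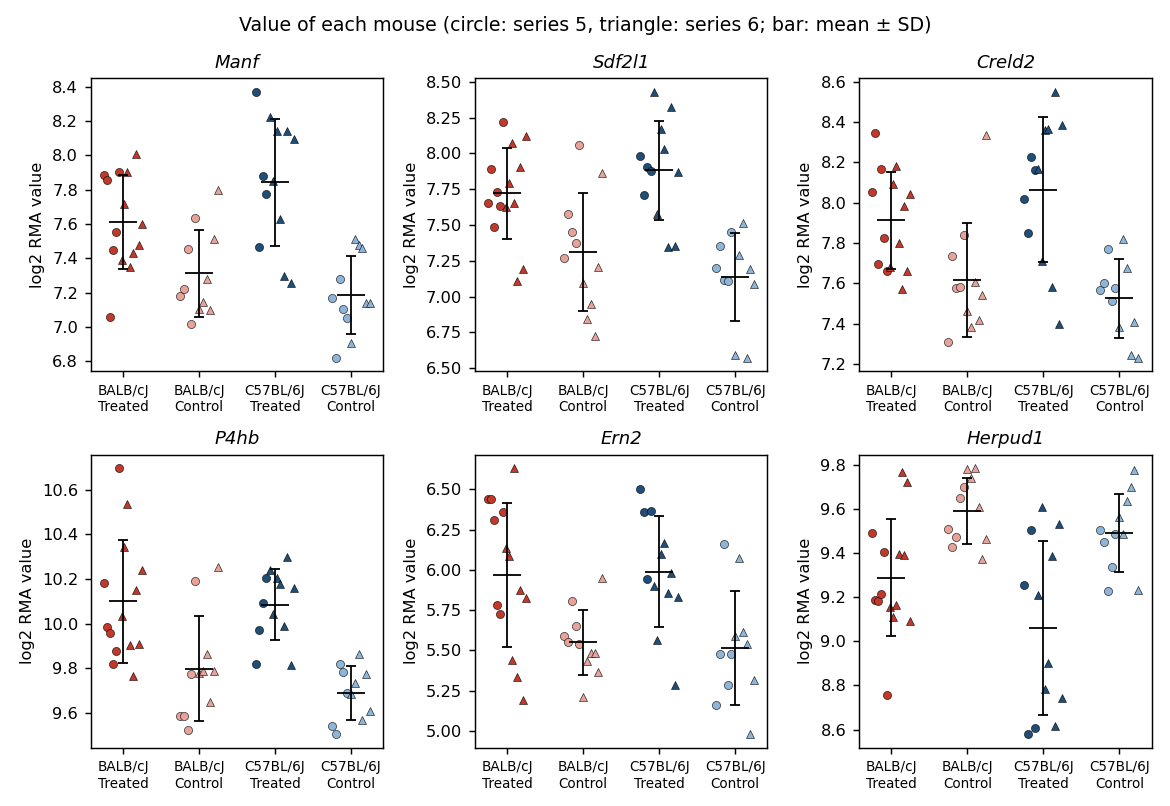
Log2 RMA value of every mouse (y axis) for 6 members in the 4 groups, with circles for series 5, triangles for series 6 and the mean ± SD in black. Sdf2l1 and P4hb each have 10 of 12 C57BL/6J Treated mice above every C57BL/6J Control mouse, and for Herpud1 7 of 12 lie below every Control mouse.

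Disulphide isomerases and lectin chaperones had 1 of 5 measured members called in C57BL/6J (median 0.21) and 0 of 5 in BALB/cJ (median 0.25). Calls over all clusters were 18.8% in C57BL/6J and 1.93% in BALB/cJ. P4hb, the classical protein disulphide isomerase and also a subunit of collagen prolyl hydroxylase, ranged from 9.81 to 10.30 (median 10.12) in C57BL/6J Treated mice. C57BL/6J Control mice ranged from 9.50 to 9.86 (median 9.69), below 10 of the 12 Treated mice. The difference was 0.40 ± 0.09 (1.32-fold, adjusted p = 0.00215, 0.35 in series 5 and 0.41 in series 6).
In BALB/cJ mice P4hb had the smallest adjusted p of all members. Treated mice ranged from 9.76, in mouse634, to 10.70 (median 10.01), and Control mice from 9.52 to 10.25, in mouse633 (median 9.78). Of 14 Treated mice, 13 lay above the Control mean, and the difference of 0.30 ± 0.09 had an adjusted p of 0.0608, which was 0.00467 without both mice and passed when any 1 of 7 mice was left out. The isomerases Pdia3, Pdia4 and Pdia6 and Calr, a lectin chaperone that binds calcium, had differences of -0.03 to 0.27 in C57BL/6J and 0.07 to 0.28 in BALB/cJ, none of them called. With array SD as a covariate, Calr (0.32, adjusted p = 0.0117), Pdia3 (0.32, adjusted p = 0.0295) and Pdia4 (0.44, adjusted p = 0.00734) passed in C57BL/6J.

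The sensors that start the response and the transcription factors they act on had 1 of 7 measured members called in C57BL/6J, Ern2, and 0 of 7 in BALB/cJ. Of all clusters 18.8% were called in C57BL/6J and 1.93% in BALB/cJ. Ern2 (IRE1β), the IRE1 form of mucous epithelium, ranged from 5.29 to 6.50 (median 5.96) in C57BL/6J Treated mice and from 4.98 to 6.16 (median 5.48) in C57BL/6J Control mice. With 4 of 12 Treated mice above every Control mouse, it was higher by 0.47 ± 0.15 (1.39-fold, adjusted p = 0.0188). Within series 5 the difference was 0.78 (adjusted p = 0.0364), within series 6 it was 0.32 (adjusted p = 0.191), and with array SD as a covariate 0.26 (adjusted p = 0.133). BALB/cJ Treated mice ranged from 5.19 to 6.63 (median 5.98) and BALB/cJ Control mice from 5.21 to 5.95 (median 5.54), and 7 of 14 Treated mice exceeded every Control mouse. That difference was 0.42 ± 0.14 (adjusted p = 0.121) and 0.51 without mouse633 and mouse634 (adjusted p = 0.0233).
Creb3l1 (OASIS), a transcription factor held in the ER membrane and known for its role in collagen secretion, had the largest difference of the members in BALB/cJ. It ranged from 6.55, in mouse634, to 8.39 (median 7.43) in BALB/cJ Treated and from 6.37 to 7.69, in mouse633 (median 6.90) in BALB/cJ Control mice. The difference of 0.57 ± 0.17 (1.48-fold) did not pass (adjusted p = 0.0784) and was 0.71 without both mice (adjusted p = 0.00537). In C57BL/6J mice it ranged from 6.63 to 7.98 (median 7.57) in Treated and from 6.40 to 7.66 (median 6.98) in Control mice, with a difference of 0.48 ± 0.18 (adjusted p = 0.0527), 0.27 in series 5 and 0.74 in series 6. Its adjusted p in C57BL/6J was 0.0373 without mouse633 and mouse634 and 0.0505 without mouse644 as well. With number series as a covariate and all mice kept, Creb3l1 passed in both strains (0.58, adjusted p = 0.0137 in BALB/cJ, and 0.54, adjusted p = 0.00593 in C57BL/6J). With array SD as a covariate its adjusted p was 0.0323 in BALB/cJ and 0.216 in C57BL/6J.

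Ern1 (IRE1α) did not pass in either strain. Its range was 7.15 to 8.07 (median 7.64) in BALB/cJ Treated and 7.07 to 7.95 (median 7.59) in BALB/cJ Control mice, with a difference of 0.06 ± 0.12 (adjusted p = 0.910). In C57BL/6J it was 7.28 to 7.88 (median 7.69) in Treated and 7.20 to 8.00 (median 7.36) in Control mice, with a difference of 0.11 ± 0.12 (adjusted p = 0.501) and a 95% interval of -0.13 to 0.35. Eif2ak3 (PERK) ranged from 7.59 to 8.02 (median 7.78) in C57BL/6J Treated and from 7.62 to 8.16 (median 8.02) in C57BL/6J Control mice.
The Eif2ak3 difference was -0.18 ± 0.08 (adjusted p = 0.117) in C57BL/6J and -0.11 ± 0.08 in BALB/cJ (adjusted p = 0.693), where Treated mice had 7.30 to 8.27 (median 7.94) and Control mice 7.58 to 8.33 (median 8.02). Xbp1, the target of the IRE1 enzymes, ranged from 9.51 to 10.36 (median 9.90) in C57BL/6J Treated and from 9.65 to 10.40 (median 10.11) in C57BL/6J Control mice, with -0.20 ± 0.12 (adjusted p = 0.222). In BALB/cJ it ranged from 9.63 to 10.76 (median 10.25) in Treated and from 9.96 to 10.61 (median 10.12) in Control mice, with -0.02 ± 0.11 (adjusted p = 0.980). Neither gene passed in either strain, and the groups overlapped widely.
Atf4, which PERK favours, ranged from 8.79 to 9.46 (median 9.03) in C57BL/6J Treated and from 8.77 to 9.33 (median 9.04) in C57BL/6J Control mice, with 0.06 ± 0.09 (adjusted p = 0.629). In BALB/cJ it ranged from 8.57 to 9.25 (median 8.91) in Treated and from 8.64 to 9.32 (median 9.13) in Control mice, with -0.14 ± 0.09 (adjusted p = 0.625). Ddit3 (CHOP), a cell death factor downstream of Atf4, was at -0.08 ± 0.16 in C57BL/6J (adjusted p = 0.745), from 5.70 to 6.92 (median 6.46) in Treated and from 5.81 to 7.03 (median 6.51) in Control mice. For BALB/cJ it was at -0.30 ± 0.15 (adjusted p = 0.439), from 5.23 to 7.15 (median 6.38) in Treated and from 5.93 to 7.21 (median 6.62) in Control mice. The 95% intervals of these 2 genes reached no higher than 0.25 in either strain.

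Translocation and signal peptide genes had 2 of 6 measured members called in C57BL/6J, both close to the threshold, and 0 of 6 in BALB/cJ. All clusters had 18.8% called in C57BL/6J and 1.93% in BALB/cJ. Spcs2, a subunit of the signal peptidase complex, rose by 0.57 ± 0.20 (adjusted p = 0.0394, 11 of 12 Treated mice above the Control mean), and Ssr1, a subunit of the translocon-associated protein complex, by 0.32 ± 0.12 (adjusted p = 0.0457, 11 of 12). Leaving out any of 10 single mice ended the call of Spcs2 (highest adjusted p = 0.0859, without mouse659) and any of 13 that of Ssr1 (0.0978, without mouse655), whose difference was 0.09 in series 5 and 0.46 in series 6. Centred arrays also ended the call of Ssr1 (0.27, adjusted p = 0.117). Sec11c, a catalytic subunit of the same peptidase, was at 0.48 in C57BL/6J (adjusted p = 0.0892) and 0.44 in BALB/cJ (adjusted p = 0.342), while Spcs3, another peptidase subunit, and the channel subunits Sec61a1 and Sec61b were below 0 in C57BL/6J, Sec61a1 lowest at -0.18, and between 0.03 and 0.15 in BALB/cJ, none called.

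Of 8 measured genes of ER-associated degradation, 1 was called higher and 1 lower in C57BL/6J (12.5% each), and 0 in BALB/cJ. These shares are near those of all clusters in C57BL/6J, 9.85% higher and 8.97% lower. Derl3, a derlin of the ER membrane, ranged from 5.65 to 6.57 (median 6.17) in C57BL/6J Treated and from 5.27 to 6.08 (median 5.48) in C57BL/6J Control mice, a rise of 0.49 ± 0.12 (1.41-fold, adjusted p = 0.00255). All 12 Treated mice were above the Control mean and 7 above every Control mouse, with 0.68 in series 5 and 0.40 in series 6 (adjusted p = 0.0142 and 0.0717). BALB/cJ Treated mice had 5.46 to 6.42 (median 5.95) and BALB/cJ Control mice 5.31 to 6.12 (median 5.77), a difference of 0.30 ± 0.11 (adjusted p = 0.184), and 0.36 without mouse633 and mouse634 (adjusted p = 0.0605).
Herpud1, an ER membrane protein that recruits the degradation machinery, was the only member called lower. It ranged from 8.58 to 9.61 (median 9.06) in C57BL/6J Treated and from 9.23 to 9.78 (median 9.49) in C57BL/6J Control mice. In 7 of 12 Treated mice it lay below every Control mouse, and the difference was -0.43 ± 0.11 (adjusted p = 0.00600, -0.41 in series 5 and -0.47 in series 6). BALB/cJ Treated mice had 8.76 to 9.77 (median 9.20), with mouse634 highest, and BALB/cJ Control mice 9.38 to 9.79 (median 9.61). There 8 of 14 Treated mice lay below every Control mouse, but the difference of -0.30 ± 0.11 did not pass (adjusted p = 0.163, and 0.0538 without mouse633 and mouse634). The mannose-trimming Edem1 and Edem2, the derlins Derl1 and Derl2, and Sel1l and Syvn1, which form a ubiquitin ligase complex, lay between -0.16 and 0.19 in C57BL/6J and between -0.13 and 0.09 in BALB/cJ, none called. The KDEL receptors, which return escaped chaperones from the Golgi, were not called with all mice: Kdelr2 was at 0.30 in BALB/cJ and 0.37 in C57BL/6J, and Kdelr3 at 0.44 in BALB/cJ (adjusted p = 0.276, and 0.58 with adjusted p = 0.0479 without mouse633 and mouse634) and 0.08 in C57BL/6J.

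Whether the strains responded differently was tested as the difference between the BALB/cJ and the C57BL/6J change. By limma, 0 of 36 members passed and 1 had an unadjusted p under 0.05, against 0.0120% of all clusters called (2 of 16715). Manf had the smallest adjusted p: its change was smaller in BALB/cJ by 0.36 (-0.36 ± 0.17, 95% interval -0.69 to -0.02, adjusted p = 0.442). Sdf2l1 was next (-0.34, interval -0.73 to 0.06). A call in C57BL/6J without one in BALB/cJ is therefore no sign here of a difference between strains, and intervals of this width leave room for differences as large as many of the changes themselves.

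Compared directly, challenged mice of the 2 strains differed in 4 members, all higher in BALB/cJ Treated than in C57BL/6J Treated mice (11.1% of the members). Over all clusters 13.3% were called, 6.42% higher and 6.87% lower in BALB/cJ, a split of 51.7% lower that became 36.3% with each array centred on its median. Edem2, which trims mannose from misfolded glycoproteins, ranged from 7.66 to 8.16 (median 7.86) in BALB/cJ Treated and from 7.09 to 7.51 (median 7.44) in C57BL/6J Treated mice, so the groups did not overlap. The difference was 0.47 ± 0.07 (1.39-fold, adjusted p = 5.51e-07, 0.39 in series 5 and 0.53 in series 6). Sec61a1, the channel subunit of the translocon, ranged from 9.36 to 10.27 (median 9.94) in BALB/cJ Treated and from 8.89 to 9.79 (median 9.54) in C57BL/6J Treated mice, a difference of 0.41 ± 0.10 (adjusted p = 0.00634). It was 0.23 with array SD as a covariate (adjusted p = 0.0201), and 9 of 14 BALB/cJ mice lay above every C57BL/6J mouse.
Xbp1 (0.32 ± 0.11, adjusted p = 0.0467, median 10.25 in BALB/cJ Treated and 9.90 in C57BL/6J Treated mice) and Sel1l, the partner of the ubiquitin ligase Syvn1 (0.28 ± 0.10, adjusted p = 0.0479, 8.91 to 9.72 with median 9.41 in BALB/cJ Treated and 8.40 to 9.41 with median 9.18 in C57BL/6J Treated mice), were at the edge. Leaving out any of 19 mice ended the call of Xbp1 and any of 32 that of Sel1l, the highest adjusted p being 0.0953 without mouse636 for Xbp1 and 0.124 without mouse532 for Sel1l. Without mouse633 and mouse634 Xbp1 had an adjusted p of 0.0805. Array SD averaged 1.95 ± 0.11 in BALB/cJ Treated (n = 14) and 1.86 ± 0.15 in C57BL/6J Treated mice (n = 12), and within groups it correlated with Sec61a1 (r = 0.80), Xbp1 (0.73) and Sel1l (0.61). With it as a covariate Xbp1 was at 0.15 (adjusted p = 0.277) and Sel1l at 0.16 (adjusted p = 0.244).
Among Control mice 1 of 36 members passed, again Edem2, while 4.66% of all clusters were called (1.90% higher and 2.76% lower). Edem2 ranged from 7.45 to 8.09 (median 7.71) in BALB/cJ Control and from 7.24 to 7.61 (median 7.43) in C57BL/6J Control mice, and 10 of 11 BALB/cJ mice lay above every C57BL/6J mouse. That difference was 0.35 ± 0.07 (adjusted p = 0.000516, 0.30 in series 5 and 0.40 in series 6). Neither strain's Edem2 changed with challenge by the test (0.09 in BALB/cJ, adjusted p = 0.697, and -0.03 in C57BL/6J, adjusted p = 0.804). Whether strain polymorphisms under its probes have a part in the Edem2 difference between strains was not tested.

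**Figure D3:**
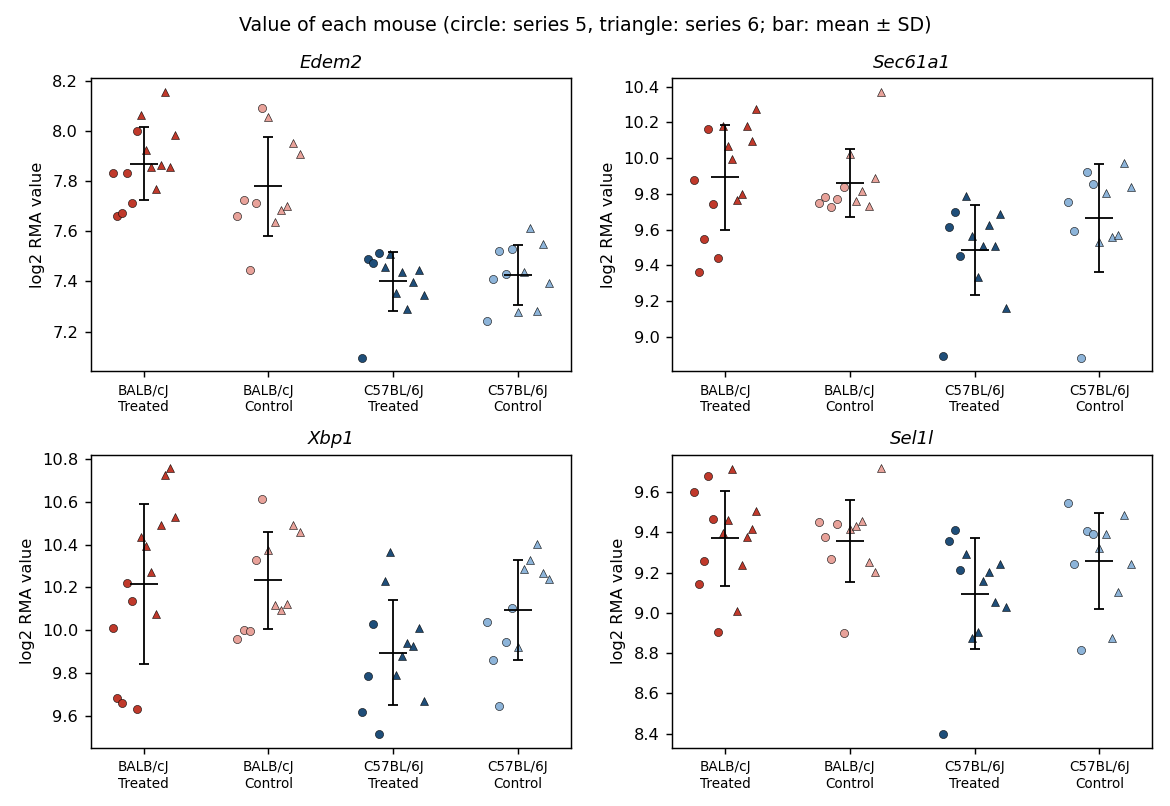
Log2 RMA value of every mouse (y axis) in the 4 groups for the 4 members that differed between challenged mice of the 2 strains (circles series 5, triangles series 6, mean ± SD in black). Edem2 separates the strains in Treated mice without overlap, with medians of 7.86 in BALB/cJ and 7.44 in C57BL/6J.

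Whole lung RNA is a mixture, so more cells of a type and more RNA per cell cannot be told apart. The defining markers of lung were bright in all groups: the mean of 7 alveolar type II genes had group medians of 11.51 to 11.62. As a base for the marker counts that follow, 1.70% of all clusters were higher and 0.233% lower after challenge in BALB/cJ. In C57BL/6J the shares were 9.85% and 8.97%. Of 8 measured goblet cell markers, 5 were higher in BALB/cJ and 6 in C57BL/6J Treated mice. Their mean per mouse was 5.60 to 8.26 (median 7.70) in BALB/cJ Treated and 5.41 to 8.19 (median 5.72) in BALB/cJ Control mice, and 6.84 to 8.28 (median 7.73) in C57BL/6J Treated and 5.59 to 7.79 (median 6.19) in C57BL/6J Control mice. Agr2, 1 of these markers, is itself an ER disulphide isomerase of mucous cells, and rose by 2.23 ± 0.40 in BALB/cJ (adjusted p = 0.000556) and by 1.73 ± 0.41 in C57BL/6J (adjusted p = 0.00271). Muc5ac and Muc5b, the mucins, were not analysed here.
Of 9 macrophage markers (Cd68, Adgre1, Marco, Mrc1, Csf1r, Cd163, Chil3, Retnla and Arg1), 5 were higher in BALB/cJ and 4 in C57BL/6J. Retnla ran from 8.17 in mouse513, a BALB/cJ Control mouse, to 13.5 in mouse659, a C57BL/6J Treated mouse. How far single genes carried the mean of this list was not tested. Their mean per mouse was 7.68 to 9.94 (median 8.63) in BALB/cJ Treated and 7.08 to 9.52 (median 7.43) in BALB/cJ Control mice, and 7.83 to 9.59 (median 8.75) in C57BL/6J Treated and 7.47 to 8.38 (median 7.82) in C57BL/6J Control mice. Eosinophil markers were higher in 1 of 6 in BALB/cJ and 4 of 6 in C57BL/6J, proliferation markers in 7 of 7 in both strains, and fibroblast markers in 4 of 7 in both, with 1 lower in C57BL/6J. Endothelial markers were lower in 1 of 6 in BALB/cJ and 3 of 6 in C57BL/6J. Of 7 alveolar type II markers 1 was higher in BALB/cJ and 0 were called in C57BL/6J. Club and ciliated cell markers, 5 each, had 0 called in BALB/cJ, while in C57BL/6J 1 club marker was higher and 2 lower, and 1 ciliated marker was lower. Plasma and B cell markers had 0 of 9 called in BALB/cJ, and 2 higher and 1 lower in C57BL/6J. Their mean per mouse was 6.18 to 7.24 (median 6.61) in BALB/cJ Treated and 6.10 to 7.23 (median 6.67) in BALB/cJ Control mice, and 6.37 to 7.64 (median 6.81) in C57BL/6J Treated and 6.12 to 7.67 (median 6.81) in C57BL/6J Control mice. The part of these cells in the changes of the members was not tested.

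How 4 members followed the goblet, macrophage, and plasma and B cell lists from mouse to mouse was examined on deviations from group means, in 12 relations with permutation tests. Mice were permuted within groups but not within number series, so p-values over all mice can partly reflect a shift between series. Over all 48 mice, 6 of 12 passed after adjustment. They include Hspa5 (r = 0.37), Ern2 (-0.47) and Creb3l1 (-0.69) with the plasma and B cell list, which lay apart by series. With array SD removed from both measures these r values were 0.07, -0.12 and -0.63. Ern2 followed the goblet list (r = 0.64, rho = 0.64, adjusted p = 4e-05). Its unadjusted permutation p of 1e-05 is the smallest that 100000 permutations can give. The r was 0.52 in series 5 (20 mice, adjusted p = 0.579) and 0.75 in series 6 (28 mice, adjusted p = 6e-05), 0.78 with array SD removed, and 0.62 without the 2 mice farthest from the median of the list, mouse633 and mouse634 (adjusted p = 0.00032). Derl3 followed the same list with r = 0.46 (rho = 0.45, adjusted p = 0.0027, permutation test), at 0.02 in series 5 and 0.60 in series 6, and 0.42 without those 2 mice.
Hspa5 followed the macrophage list (r = 0.69, rho = 0.67, adjusted p = 4e-05, permutation test), at 0.77 in series 6 (adjusted p = 0.00096) but 0.11 in series 5 (adjusted p = 0.918), and at 0.58 without the 2 farthest mice (adjusted p = 0.00032). Median deviations of the macrophage list were -0.37 in series 5 and 0.19 in series 6, and those of Hspa5 -0.25 and 0.14. Creb3l1 had r = 0.18 with the macrophage list over all mice (rho = -0.02, adjusted p = 0.264), but 0.85 in series 6 (adjusted p = 6e-05, permutation test) and 0.14 in series 5. The plasma and B cell list lay apart by series, with median deviations of -0.35 in series 5 and 0.29 in series 6, so its r values are also given by series. Creb3l1 ran against it in series 6 (r = -0.58, adjusted p = 0.0056) and was at -0.16 in series 5 (adjusted p = 0.918). Ern2 was at -0.34 in series 5 and -0.36 in series 6, neither passing, and Hspa5 at 0.12 in series 5 and -0.41 in series 6, where it passed (adjusted p = 0.0454, permutation test). In series 5 alone 0 of 12 relations passed by permutation. Ern2 and the goblet list were the 1 relation there with an unadjusted p under 0.05 (0.0483 for r, permutation test).

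**Figure D4:**
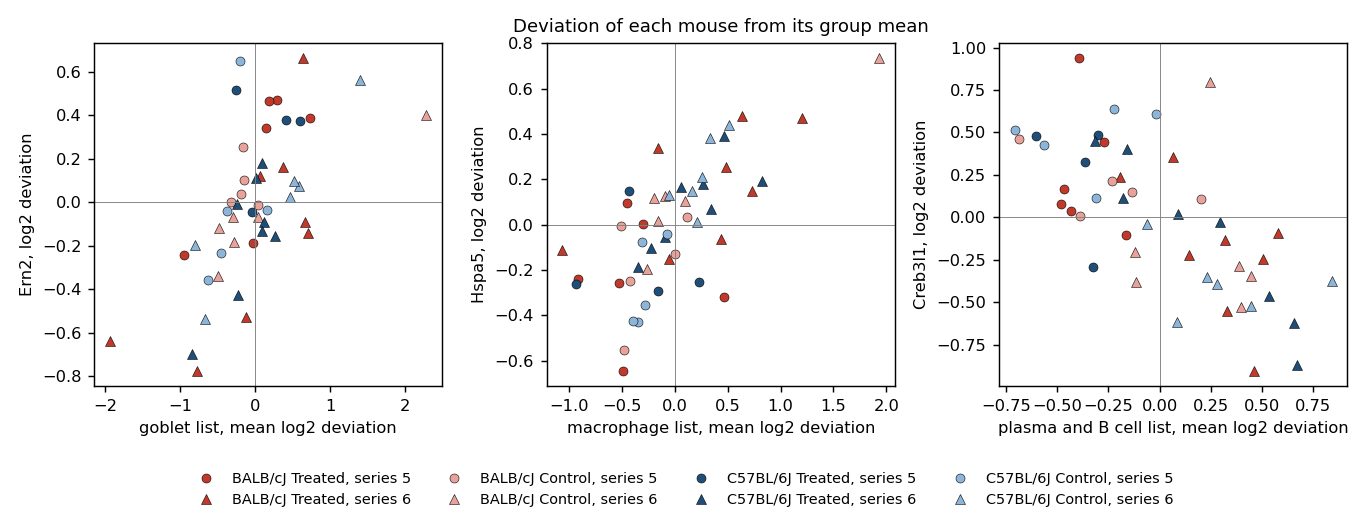
Deviation of each mouse from its group mean on the log2 scale, for the mean of a marker list (x axis) and a member (y axis), with colours for groups and circles and triangles for series 5 and 6. The r values by series use deviations from the group means within that series, not the deviations plotted. Ern2 and the goblet list have r = 0.64 over 48 mice (0.52 in series 5 and 0.75 in series 6). Hspa5 and the macrophage list have r = 0.69 (0.11 in series 5 and 0.77 in series 6), and the 2 series lie apart along the plasma and B cell list.

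Within groups the members varied together in part. Over 630 pairs the median r between mice was 0.22, and 0.21 after array SD was removed. These are descriptions over 48 mice that share 1 platform and lie in 2 number series. No median over pairs of other genes is given, so whether members varied together more than other genes was not tested. Within series 5 (20 mice) the median was 0.17 and within series 6 (28 mice) 0.25. Pairs with a high r were Pdia4 with Pdia6 (0.91; 0.85 in series 5 and 0.86 in series 6), Dnajb11 with Pdia4 (0.90; 0.77 and 0.89), Spcs3 with Derl2 (0.90; 0.78 and 0.75) and Hspa5 with Pdia6 (0.86; 0.66 and 0.80). With array SD removed these were 0.86 for Pdia4 and Pdia6, 0.88 for Dnajb11 and Pdia4, 0.75 for Spcs3 and Derl2, and 0.80 for Hspa5 and Pdia6. Spcs2 and Sec11c, subunits of signal peptidase, were at 0.83 (0.87 in series 5 and 0.50 in series 6), and Creb3l1 and Syvn1 at 0.81 (0.73 and 0.70). Ern1 ran against Sec11c (-0.66) and Spcs3 (-0.71) over all mice, at -0.74 in series 5 and -0.22 in series 6 for Sec11c, and at -0.34 and -0.46 for Spcs3. Herpud1, the member that fell, had a median r with the other members of -0.22 after removal of array SD, against 0.41 for Hspa5. Without that removal it was 0.12 in series 5 and -0.23 in series 6 for Herpud1, and 0.37 and 0.55 for Hspa5.

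**Figure D5:**
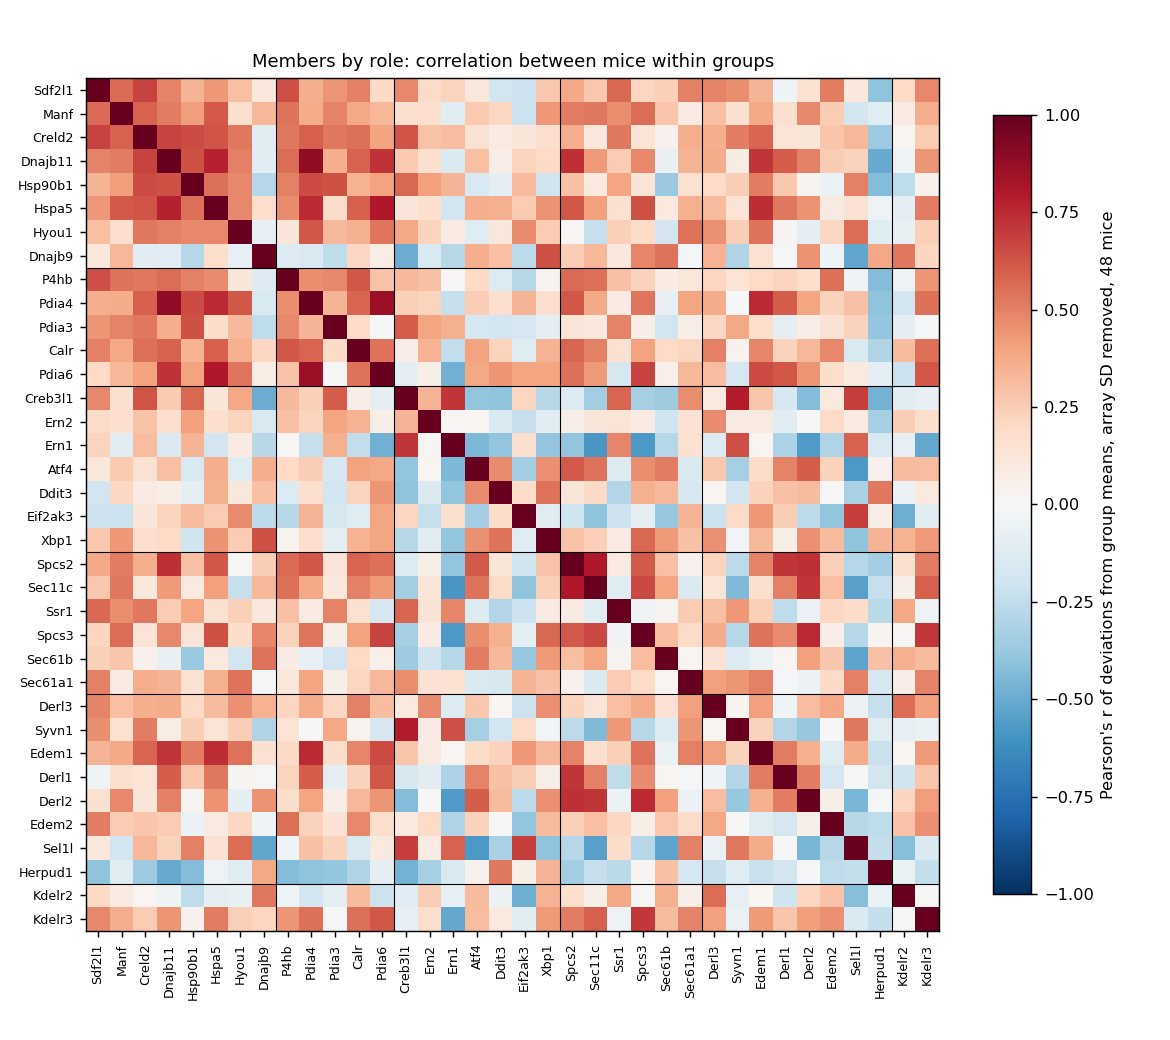
Pearson's r between members over 48 mice, on deviations from group means with array SD removed (red positive, blue negative), with members by role on both axes. Chaperones and isomerases are mostly red among themselves, Dnajb9 being an exception, with Pdia4 and Dnajb11 at 0.88, and the row of Herpud1 is mostly blue.

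A wider list of genes of the same pathway, 114 measured of 140, was counted in the same fit. In C57BL/6J mice 10 were higher and 9 lower (8.77% and 7.89%, median -0.05), near the shares of all clusters, and with centred arrays 4 were higher and 12 lower. Ero1b, an oxidase that recharges disulphide isomerases, rose by 1.06 ± 0.21 (2.09-fold, adjusted p = 0.000545), Bak1, a cell death protein that binds IRE1, by 0.75 ± 0.18 (adjusted p = 0.00257) and Srp14, a subunit of the signal recognition particle, by 0.49 ± 0.16 (adjusted p = 0.0249). Srp68, another subunit of that particle, fell by 0.40 ± 0.08 (adjusted p = 0.000526), Mbtps1, the protease that cleaves Atf6, by 0.41 ± 0.11 (adjusted p = 0.00494) and Fkbp14, a prolyl isomerase, by 0.64 ± 0.17 (adjusted p = 0.00798).
By list, folding and redox genes had 4 higher and 3 lower of 25, translocation and N-glycosylation 2 and 2 of 25, degradation 0 and 2 of 12, the integrated stress response 1 and 1 of 12, sensors and their processing 1 and 1 of 10, and ER to Golgi traffic 2 and 0 of 30. In BALB/cJ 0 of 114 passed by limma, with 11 at an unadjusted p under 0.05. Bak1 (0.55, adjusted p = 0.0784) and Ppp1r15a, which ends the PERK signal (-0.36, adjusted p = 0.0939), came nearest.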

How the data were processed

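RMA log2 expression values for core exons, summarised to transcript clusters in Partek Genomics Suite (version not given in the sources used here), are what the authors deposited, per the labels. Raw intensities were not used, so background and probes over strain polymorphisms could not be handled anew. An array has no read depth. Clusters were named by the platform annotation (14959 with 1 symbol, 1016 with several, 740 with none), and 14904 gene numbers matched the RefSeq table.

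Arrays of a mouse were averaged, and 1 mean per group was fitted with limma 3.58.1 in R 4.3.3 to 48 mice. This gave 5 comparisons, adjusted by Benjamini and Hochberg over 16715 clusters. The labels do not say that mice were housed or processed apart, and the main fit has no term for number series. Its p-values rest on the spread between these mice, any shift between series or arrays included. The fit was tested on simulated data with independent noise and no shift between series or arrays. That test therefore cannot show how such shifts affect the calls. Relations to marker lists used permutation within groups. Named with full values were the 6 members of smallest adjusted p in each challenge comparison, the 4 called members with the largest difference in each strain comparison, and the 7 measured sensors and transcription factors. Of other pathway genes, up to 3 in each direction were named by adjusted p. Members and lists were chosen with earlier results of these data known. Alternatives were quantile normalisation, centring, first arrays, a filter on the dimmest 25%, number series and array SD as covariates or apart, another prior, the compared groups alone, the mean of clusters and each mouse left out. Fits without mouse633, mouse634 and mouse644 and with joined covariates, and member correlations within series, were added after the data were seen.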

Additional observations from a re-analysis of the deposited data

How the results depend on the processing

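The count of members called moved by over 1.5 times under some alternatives. In BALB/cJ mice, 0 members with all mice became 3 with number series as a covariate, 4 with array SD, 6 with both, 8 without mouse633 and mouse634, 7 without mouse644 as well, and 14 with number series and without mouse633 and mouse634. Calls over all clusters were 323 with all mice and, with number series, 436 higher and 102 lower; the other settings, in the same order, gave 748, 1099, 809, 790 and 1247. Leaving out 1 mouse gave 0 to 6, with 6 without mouse633, 3 without mouse634 or mouse636, 2 without mouse524 and 1 without mouse525, mouse526 or mouse532. In C57BL/6J mice, 11 became 17 with quantile normalisation, 17 with array SD and 4 in series 5 alone (2945, 2279 and 305 over all clusters, against 3146), and 9 to 12 with 1 mouse left out. Centring changed the share of lower calls over all clusters there, 66.8% against 47.7%. Between challenged strains, 4 became 8 with number series (also without mouse633 and mouse634), 8 in series 6 alone, 0 in series 5 alone, and 2 with array SD, with array SD and number series, or with the 2 groups alone. Over all clusters 2222 became 4509 with number series, 3560 in series 6, 219 in series 5 and 1438 with the 2 groups alone. With 1 mouse left out the range was 2 to 5, with 2 for 18 different mice. Quantile normalisation also gave 4, but with Atf4 and Ssr1 lower in BALB/cJ. Between Control mice, 1 became 2 with number series, 3 with array SD, 3 with both and 0 in series 5 alone, and stayed at 1 to 1 with any mouse left out, while 779 over all clusters became 1126, 1249, 1561 and 275. The difference between strains kept 0 members under all alternatives run, 0 to 0 with 1 mouse left out. Of 12 relations, 6 passed over all mice and 0 in series 5 alone. Hspa5 and the plasma and B cell list had r = -0.41 in series 6 alone, opposite in sign to the value over all mice. The cause of these changes was not tested. No paired analysis was possible because no animal contributed to more than 1 group, and numbers in the sample titles mark repeat arrays.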
